A study of Mus musculus with 18 samples.

Results

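Lachnospiraceae outside the NK4A136 group were described in the stool of 18 peanut-sensitized mice, genus by genus and sequence by sequence. The members are all sequence features that the authors' taxonomy places in the family Lachnospiraceae under any genus other than Lachnospiraceae_NK4A136_group, including features with a missing or uncultured genus. A sequence feature is a distinct 16S rRNA gene sequence in the deposited table, written here as F- and the first 6 characters of its identifier. The rule selected 101 of 419 features, which held 10269 of 43267 counts. Of these, 45 features carried 1 of 12 named genera, and 56 had no usable genus name.

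The mice were second-generation (N2) offspring of a cross between the inbred strains C57BL/6 and C3H/HeJ, and stool was sampled once they had been sensitized to peanut for 6 weeks. The labels class 6 of them as susceptible and 12 as resistant to oral anaphylaxis, an acute systemic allergic reaction to food, so that both groups shared the cross and the sensitization. The labels used give no age, sex, cage, litter or collection day, and mice of 1 cage would share bacteria, so that mice may not be independent. Counts per mouse ran from 673 to 3905 with a median of 2534.5, and 2 libraries, resistant mice 3 and 5, had under 1500. A mouse with 0 counts of a taxon could hold up to 3 counts of its total, a limit between 0.0768% and 0.446%, which covers counting error only. All values are percentages of all counts in a mouse unless stated.

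Lachnospiraceae are strictly anaerobic, mostly spore-forming Clostridia of the large intestine that ferment plant polysaccharides and host glycans. Their end products include acetate and the short-chain fatty acid butyrate, an energy source of colon epithelium that also favours regulatory T cells. In mouse stool much of the family is known only from sequences, so that many genera carry code names. A bacterial genome often holds several copies of the 16S rRNA gene that need not be identical, and 1 strain can therefore give more than 1 sequence feature.

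The members together made up 22.0 ± 10.4% of counts (SD, n = 18), from 6.09% in resistant mouse 3 to 38.5% in resistant mouse 11. They held between 16.4% and 81.6% of a mouse's Lachnospiraceae counts. In susceptible mice 1 to 6 the summed share was 11.3%, 25.0%, 28%, 7.82%, 27.8% and 31.4%, with a mean of 21.9 ± 9.82% (SD, n = 6). In resistant mice it ran from 6.09% through a median of 21.6% to 38.5%, with a mean of 22.1 ± 11.1% (SD, n = 12). The groups overlapped over nearly their whole ranges, and the difference of means was -0.171 percentage points. No test was made of this sum. In all that follows, a p that misses the threshold does not show that values were alike.

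Lachnospiraceae_UCG-001 and the unnamed genera made up most of the members. Lachnospiraceae_UCG-001 held 48.2% of the member counts and the unnamed genera 38%, followed by Marvinbryantia with 4.49%, Lachnoclostridium with 2.70%, Roseburia with 2.37% and [Eubacterium]_xylanophilum_group with 1.66%. The other 7 genera each held under 1%. Lachnospiraceae_UCG-001 was the 1 genus found in all 18 mice, and 4 genera (Roseburia, Blautia, Tuzzerella and Lachnospiraceae_UCG-004) were found in 1 mouse each. Mice held between 1 and 7 of the 12 named genera, with a mean of 5.0 ± 1.67 among the 6 susceptible mice and 3.5 ± 2.07 among the 12 resistant ones (SD).

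**Figure D1:**
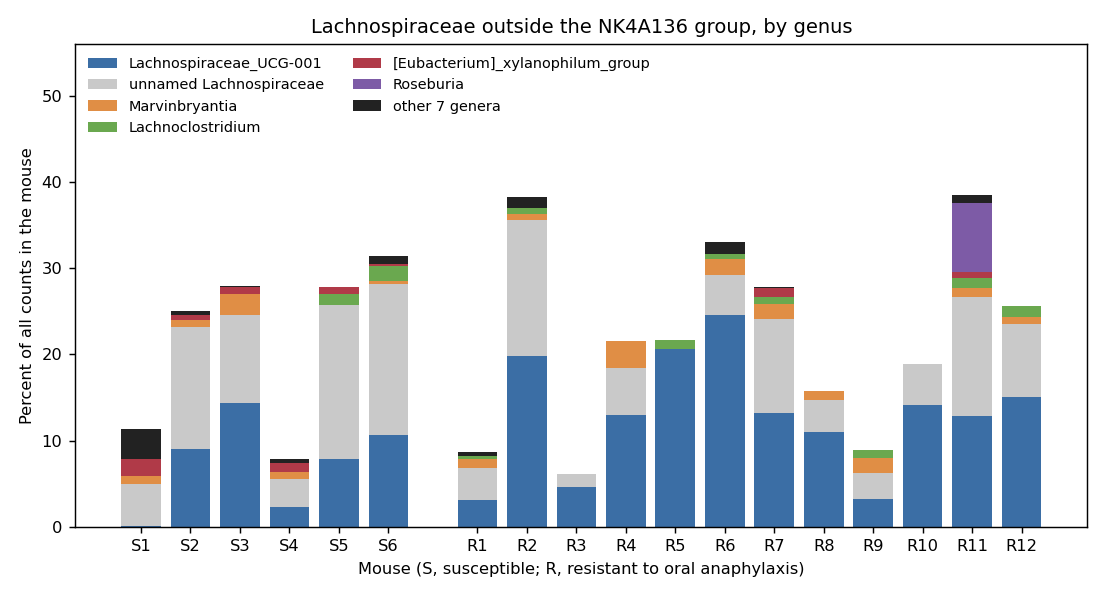
Percent of all counts in each mouse (vertical axis) held by Lachnospiraceae outside the NK4A136 group, stacked by genus, for 6 susceptible (S) and 12 resistant (R) mice, 1 bar per mouse. Bars reach from 6.09% to 38.5%, UCG-001 (blue) is nearly missing from S1, and Roseburia (purple) appears in R11 alone.

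Lachnospiraceae_UCG-001, a genus known only by its code name, had a mean share of 7.38 ± 5.29% in the 6 susceptible mice and of 12.9 ± 6.81% in the 12 resistant mice (SD). In susceptible mice 1 to 6 it made up 0.124%, 9.0%, 14.3%, 2.31%, 7.90% and 10.6%. In resistant mice it ran from 3.12% through a median of 13.1% to 24.6%. Only susceptible mice 1 and 4 lay below the lowest resistant mouse, and 4 resistant mice (2, 5, 6 and 12) lay above the highest susceptible one. The log2 fold change, susceptible over resistant, was -0.26 ± 0.77 (SE; adjusted p = 0.966, edgeR), and the difference did not pass the test. It was 0.075 without susceptible mouse 4, the 1 positive value among 18 omissions of a single mouse. In all 8 alternatives it was negative, from -1.91 with limma on centred log-ratios to -0.29 with no filter, and -1.16 with DESeq2 size factors. None of these passed, and the lowest adjusted p was 0.361, in the exact permutation test.

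Nearly all Lachnospiraceae_UCG-001 counts came from 4 of its 9 features, in near-constant proportions in mice where they were found together. F-a98c4f was found in all 18 mice, from 3 counts in susceptible mouse 1 to 370 in resistant mouse 6, and was the most abundant member in 13 of them. F-f79da2 was found in 15 mice and gave 0.533 ± 0.0822 counts (SD, n = 15) for each count of F-a98c4f, with a lowest ratio of 0.403 and a highest of 0.703. The 3 mice without it (susceptible mice 1 and 4 and resistant mouse 3) held 3, 36 and 31 counts of F-a98c4f, the fewest of all mice. At 36 and 31 counts even the lowest ratio would give counts above 0, but 0 were found in these 2 mice. Where found, F-f79da2 had at least 25 counts. Whether low counts were lost in processing was not tested. The mean and SD leave out mice with 0 counts. In 14 mice 1 further feature was found beside this pair. F-642e50 was found in 5 mice at 0.457 ± 0.103 (SD, n = 5) of F-a98c4f, and F-a70a1a in 9 mice at 0.492 ± 0.0974 (SD, n = 9). No mouse held both, 14 held either, and 4 held neither. The last included resistant mouse 9, with 62 counts of F-a98c4f and 25 of F-f79da2. Among the 20 member features found in 4 or more mice, 20 of 190 pairs were never in the same mouse.

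Both F-642e50 and F-a70a1a were found in both allergy groups. F-642e50 was found in 2 susceptible mice (2 and 3) and 3 resistant mice (1, 2 and 4), and F-a70a1a in 2 susceptible mice (5 and 6) and 7 resistant mice. Carriers of F-642e50 had sample titles numbered from 34 to 42, and carriers of F-a70a1a from 39 to 50. The labels do not say what that number means. Resistant mouse 2, with 353 counts of F-a98c4f, had 178 of F-f79da2, 125 of F-642e50 and 0 of F-a70a1a. Resistant mouse 6, with 370 of F-a98c4f, had 195 of F-f79da2, 211 of F-a70a1a and 0 of F-642e50. These proportions were examined after the values were seen, and whether the features are gene copies of shared strains was not tested. The remaining 5 features of the genus were each found in 1 mouse. As single features, F-a98c4f had a log2 fold change of -0.81 ± 0.95, F-f79da2 of -0.79 ± 1.30 and F-a70a1a of -1.43 ± 1.81 (SE; adjusted p = 0.964 for each, edgeR).

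**Figure D2:**
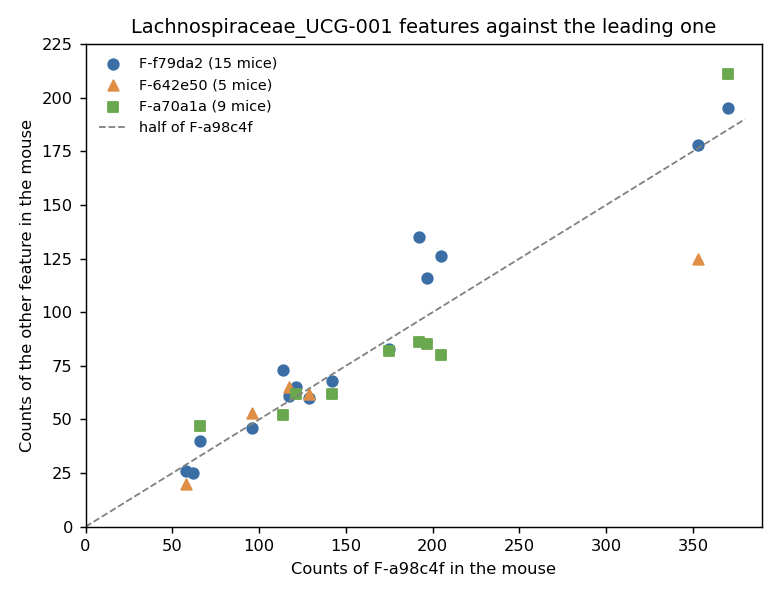
Counts of 3 Lachnospiraceae_UCG-001 features (vertical axis) against counts of the leading feature F-a98c4f in the same mouse (horizontal axis), 1 point per mouse in which the feature was found; the dashed line is a slope of 0.5 drawn for orientation. Points of all 3 features lie along it, with mean ratios of 0.533, 0.457 and 0.492.

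Across the 20 member features found in 4 or more mice, such steady proportions were uncommon but not confined to Lachnospiraceae_UCG-001. Of 190 pairs of these features, 60 shared at least 4 mice, and the SD of the log2 ratio within such a pair had a median of 1.02. It was 0.22 for F-f79da2 with F-a98c4f, 0.26 for F-a70a1a with F-a98c4f and 0.34 for F-642e50 with F-a98c4f. The lowest value, 0.19, belonged to F-33e40f of an unnamed genus with F-642e50 over 4 shared mice. Other pairs across genera came close to the last of these 3. F-029e14 of Marvinbryantia with F-59acc1 of an unnamed genus had 0.32 over 4 mice. F-f79da2 with F-b3e8c8 of [Eubacterium]_xylanophilum_group had 0.35 over 5 mice. The highest was 2.64, for F-a97557 of an unnamed genus with F-a98c4f.

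The unnamed genera had a mean share of 11.3 ± 6.29% in the 6 susceptible mice and of 6.31 ± 4.92% in the 12 resistant mice (SD). In susceptible mice 1 to 6 they made up 4.80%, 14.2%, 10.3%, 3.27%, 17.8% and 17.6%. In resistant mice they ran from 0 counts in resistant mouse 5, which allows up to 0.259%, through a median of 4.70% to 15.8%. Susceptible mice 5 and 6 lay above all resistant mice, and the other 4 lay within the resistant range. The log2 fold change was 1.44 ± 0.78 (SE; adjusted p = 0.380, edgeR) and 0.53 with DESeq2 size factors, and the difference did not pass the test.

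The unnamed counts were spread over many sequences, and sharing between mice was low, as in the table as a whole. Of the 56 features, 28 were found in 1 mouse (50%, against 55.6% of the 45 members of named genera and 58.2% of all 419 features). A further 16 were found in 2 or 3 mice, 12 in 4 to 8 mice and 0 in more. The 3 most abundant together held 32% of the unnamed counts. F-15784c reached 10.2% of counts in resistant mouse 2 and 5.25% in susceptible mouse 3, and was otherwise found at 1.49% and 1.37% in resistant mouse 3 and susceptible mouse 2. F-2ab3aa was the most widely shared, in 4 susceptible mice at 1.13% to 4.89% and in 4 resistant mice at 0.780% to 1.98%. It was the leading member in susceptible mice 1 and 2. F-7ecb83 was found in susceptible mouse 6 at 7.14% and in susceptible mouse 5 at 2.69%.

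Susceptible mice 5 and 6 shared 5 features of unnamed genera that no other mouse held. These were F-7ecb83 (52 and 279 counts), F-5b2ed4 (22 and 92), F-0fbe2e (10 and 6), F-32ac03 (5 and 8) and F-b0232d (4 and 6). Together they made up 4.80% of counts in susceptible mouse 5 and 10.01% in susceptible mouse 6, a 17.3% and a 31.9% share of their member counts. Of the 18 members found in exactly 2 mice, no other pair of mice held more than 1. The sample titles of these mice are numbered 46 and 48, and the mouse numbered 47, resistant mouse 10, held none of the 5.

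Of 11 genera listed by name as butyrate producers, 3 were found among the members, and each had its own pattern. The list matches genus names only, and butyrate was not measured. [Eubacterium]_xylanophilum_group, named after a xylan-degrading butyrate producer, was present in all 6 susceptible mice and in 2 of the 12 resistant ones. Its shares were 1.99%, 0.555%, 0.742%, 1.02%, 0.826% and 0.282% in susceptible mice 1 to 6. Resistant mice 7 and 11 held 0.976% and 0.662%, and the other 10 had 0 counts. The ranges thus overlapped through those 2 carriers. For 9 of the 10 resistant mice without it, the limit set by a count of 0 lay below the lowest susceptible share. Resistant mouse 3, the smallest library, could hold up to 0.446%.

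The presence of [Eubacterium]_xylanophilum_group differed between the groups by Fisher's exact test (two-sided p = 0.00151, adjusted p = 0.0302 over 20 genera of the whole table found in 4 to 14 mice). Of those 20 genera, 5% passed; of the 6 member genera among them, this 1 did. The call was lost when any 1 susceptible mouse was left out (adjusted p from 0.0577 to 0.0679) and without the 2 libraries under 1500 counts (adjusted p = 0.133, Fisher's exact test). Its mean share was 0.903 ± 0.588% in the 6 susceptible mice and 0.137 ± 0.326% in the 12 resistant mice (SD). The abundance difference did not pass the planned test, with a log2 fold change of 3.58 ± 1.63 (SE; adjusted p = 0.372, edgeR). It did pass when log2 of the percent plus 0.01 was compared in an exact permutation test over every split of the mice (adjusted p = 0.0224; 3.85% of 26 genera passed). It also passed with limma on centred log-ratios (adjusted p = 0.00506; 3.85% passed). The 10 resistant mice with 0 counts entered the permutation test as 0.01%, below their limits of 0.0901% to 0.446%, and limma as 0.5 counts. Both results therefore include the difference in presence. The 2 resistant carriers lay within the susceptible range. DESeq2 gave an adjusted p of 0.920, the highest over the alternatives.

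Nearly all counts of this genus belonged to 1 sequence. F-b3e8c8 held 159 of its 170 counts and was found in susceptible mice 1 to 5 and in both resistant carriers. Susceptible mouse 6 carried F-19eac7 instead, with 11 counts, and no other mouse did. As a single feature F-b3e8c8 had a log2 fold change of 1.68 ± 1.83 (SE; adjusted p = 0.964, edgeR).

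**Figure D3:**
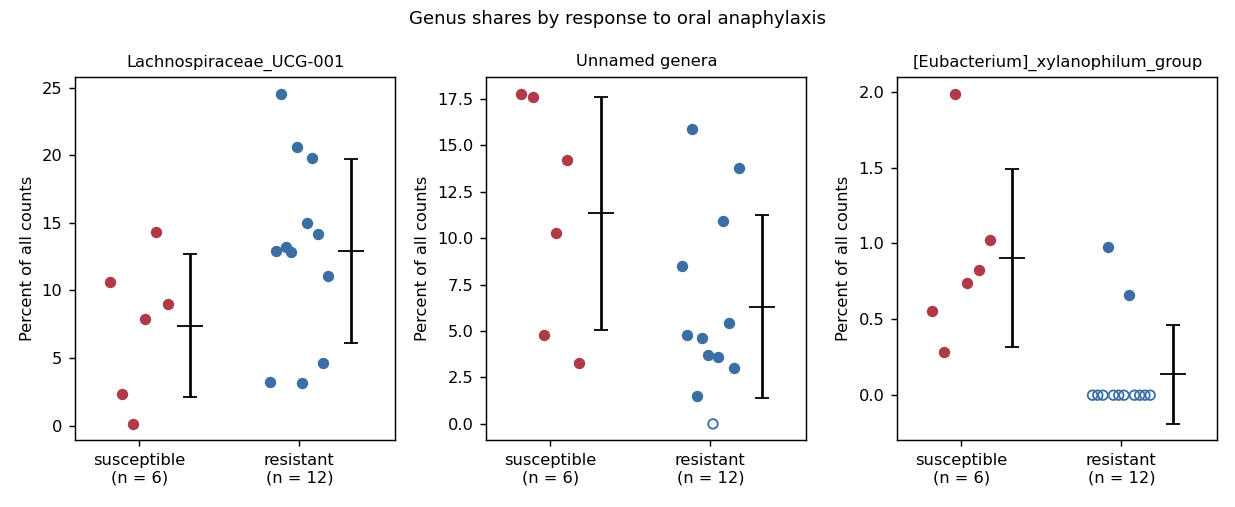
Percent of all counts (vertical axes, separate scales) for Lachnospiraceae_UCG-001, the unnamed genera and [Eubacterium]_xylanophilum_group in 6 susceptible and 12 resistant mice; points are mice, open points have 0 counts, and the bars give mean and SD. The groups overlap in all 3 panels, and 10 resistant mice sit at 0 for [Eubacterium]_xylanophilum_group.

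The other 2 genera on the butyrate list were found in few mice. [Eubacterium]_ventriosum_group made up 2.15% in susceptible mouse 1, 0.420% in resistant mouse 1 and 0.392% in resistant mouse 2, and had 0 counts elsewhere. Roseburia, motile butyrate producers that grow on plant polysaccharides, was found in resistant mouse 11 only, at 8.04% of its counts. Its 2 features there, F-6d01ac with 183 counts and F-d3705c with 60, included the leading member of that mouse. Neither genus met the minimum of 4 mice, so neither entered the planned edgeR test.

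Acetogens, which make acetate from hydrogen and carbon dioxide or formate, were represented by both genera on their list. Marvinbryantia was present in 5 of the 6 susceptible mice and 9 of the 12 resistant ones, at 0.883 ± 0.826% (SD, n = 6) and 1.11 ± 0.930% (SD, n = 12). In susceptible mice 1 to 6 it made up 0.994%, 0.740%, 2.40%, 0.833%, 0 and 0.333%, and in resistant mice it reached 3.19%. The groups overlapped, and its log2 fold change of 0.28 ± 1.40 (SE; adjusted p = 0.966, edgeR) was -1.03 with DESeq2 size factors. Blautia was found in susceptible mouse 1 only, with 11 counts (0.455%).

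Marvinbryantia also held 2 sequences that were not found in the same mouse. F-029e14 was found in 9 mice (4 susceptible and 5 resistant) at 0.333% to 2.65%, and F-f99554 in 6 of these 9 with a median of 0.218 counts for each of its counts. F-06a9ef was found in 4 other mice (susceptible mouse 4 and resistant mice 8, 9 and 12) at 0.801% to 1.67%. No mouse held both F-029e14 and F-06a9ef, which are 1 of the 20 such pairs among 190. Carriers of F-06a9ef had titles numbered 43 to 50, and carriers of F-029e14 33 to 49.

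Lachnoclostridium, a mixed genus of former Clostridium species, was present in 2 of the 6 susceptible mice and 8 of the 12 resistant ones. Susceptible mice 5 and 6 held 1.34% and 1.69%, above all resistant mice, whose highest value was 1.21%. The other 4 susceptible mice had 0 counts. Means were 0.506 ± 0.791% (SD, n = 6) and 0.567 ± 0.479% (SD, n = 12). The log2 fold change of 0.49 ± 1.56 (SE; adjusted p = 0.966, edgeR) turned to -0.29 with DESeq2 size factors, and presence had a Fisher's exact p of 0.321 (adjusted p = 0.765). Its 277 counts were divided among 11 features, none found in more than 3 mice. The most abundant on average were F-1e0ab6, found in susceptible mouse 5 and resistant mice 7 and 12 at 0.641% to 0.882%, and F-28bbe3, found in resistant mice 5, 9 and 12 at 0.260% to 1.03%.

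The remaining named genera were rare. GCA-900066575, known by a genome identifier, was found in susceptible mice 1, 4 and 6 at 0.580%, 0.384% and 0.410% and in resistant mouse 6 at 0.849% (presence 3 of 6 against 1 of 12, Fisher's exact p = 0.0833, adjusted p = 0.556). ASF356, named after a strain of the altered Schaedler flora used to colonize germ-free mice, was found in 3 of 6 and 4 of 12 mice and never exceeded 0.629%. Acetatifactor, a genus described from mouse intestine and the 1 genus found of 4 listed as mucin or glycan degraders, was found in 2 mice of each group at 0.265% to 0.482%. Their log2 fold changes of 1.76 ± 1.56, 0.33 ± 1.56 and 1.0 ± 1.46 (SE; edgeR) did not pass the test, and that of ASF356 turned to -0.32 with DESeq2 size factors. Lachnospiraceae_UCG-004 had 9 counts in resistant mouse 6, and Tuzzerella 5 counts in susceptible mouse 1. Susceptible mouse 1, where Lachnospiraceae_UCG-001 was lowest, thus held 3 counts of that genus but all Blautia and Tuzzerella counts and most [Eubacterium]_ventriosum_group counts of the study.

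Between susceptible and resistant mice, edgeR's quasi-likelihood test called 0 of the 8 member genera tested (0% of all 26 genera tested). At an unadjusted p under 0.05 it had 1 member genus, [Eubacterium]_xylanophilum_group. By DESeq2 the count was 0 (0 unadjusted), and by limma on centred log-ratios 1 (2 unadjusted, the other being Lachnospiraceae_UCG-001). By edgeR with no filter it was 3 of 13, each found in 1 mouse (9.62% of all 52 genera). Of the 8 members, 7 had a positive log2 fold change with TMM scaling and 4 with DESeq2 size factors or library totals. The median over the 26 genera depended on the scaling: it was 0.53 with TMM, 0.21 with library totals and -0.23 with DESeq2 size factors. The member medians were 0.75, 0.23 and 0.12. Single genera did not all move by the same amount. Relative to the median of all genera, Lachnospiraceae_UCG-001 lay at -0.79, -1.02 and -0.93 under these scalings. The unnamed genera lay at 0.90, 0.63 and 0.76, and [Eubacterium]_xylanophilum_group at 3.04, 2.44 and 2.40. Acetatifactor lay at 0.47, 0.41 and 1.05, and Marvinbryantia at -0.25, -0.54 and -0.81. By role, 0 of 1 butyrate producer, 0 of 1 acetogen, 0 of 1 mucin or glycan degrader and 0 of 3 code-named genera passed among those tested.

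Of the 101 member features, 20 had 10 or more counts in all, were found in at least 4 mice and were tested, and edgeR called 0 of them (0% of all 83 features tested). The lowest p belonged to F-0e3d51 of an unnamed genus, found in 0 of 6 susceptible mice and in resistant mice 1, 2, 4, 11 and 12 at 0.661%, 1.66%, 0.995%, 0.761% and 1.17% (unadjusted p = 0.00973, adjusted p = 0.807, edgeR). The groups overlapped, since the other 7 resistant mice also had 0 counts. By DESeq2 and by limma the count was 0 as well, with 1 unadjusted in each. Fold changes were positive for 8 and negative for 12 of the 20, with a median of -0.51 against -0.24 over all 83. Next by p, besides F-b3e8c8 given above, were F-a97557 (4 mice, mean 0.424% in susceptible and 0.0643% in resistant mice), F-59acc1 (5 mice, 0.131% and 0.297%) and F-4a572c (5 mice, 0.597% and 0.124%), all of unnamed genera with an adjusted p of 0.964 (edgeR). Without a filter edgeR called 22 of the 101 members (15.3% of all 419 features), of which 16 were found in 1 mouse and none in more than 2.

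**Figure D4:**
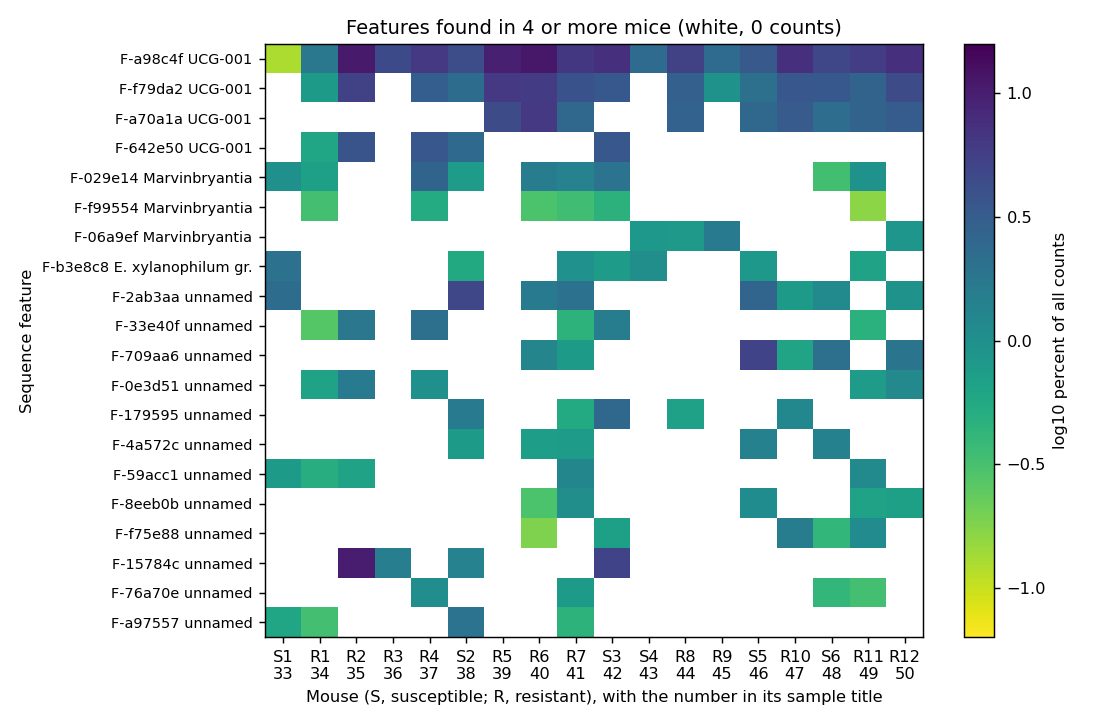
The 20 member features found in 4 or more mice (rows, with genus) in 18 mice ordered by the number in their sample title (columns); colour is log10 of the percent of all counts and white is 0 counts. F-642e50 and F-a70a1a occupy different mice, as do F-029e14 and F-06a9ef, and F-a98c4f is found in all 18.

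Sharing of sequences between mice was low. Of the 101 members, 53 were found in 1 mouse (52.5%, against 54.8% of the 31 NK4A136 features and 58.2% of all 419), 4 in 9 or more mice and 1 in all 18. The features of single mice held 8.09% of member counts, most in resistant mouse 11 (32.5% of its member counts, 9 features, Roseburia included). A mouse held from 2 to 31 member features. Any pair of mice of the same group had a median of 3 in common, as did pairs of different groups. Mean Bray-Curtis dissimilarity over the members, the share of their counts not held in common, was 0.742 within susceptible, 0.565 within resistant and 0.695 between groups.

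Compared with the NK4A136 group of the same family, the members were spread over more sequences at equal depth. The rule sets 12 named genera and 56 unnamed features against a single genus name with 31 features. A difference in this direction is therefore built into the comparison, and the test cannot separate it from any other difference. In 50 counts of each, 11 ± 3.97 member features and 5.63 ± 1.68 NK4A136 features were expected (SD, n = 17), a difference of 5.37 ± 3.71 features (SD). It was positive in 17 of 17 mice (two-sided paired permutation p = 2e-05, adjusted p = 6e-05 over 3 measures). Resistant mouse 3, with 2 member features and 3 NK4A136 features found, had fewer than 50 member counts and was left out. In 30 counts, which keeps that mouse, the difference was 3.84 ± 2.99 features (SD), positive in 17 of 18 mice (permutation p = 5e-05, adjusted p = 0.00015). The share of all counts was 22.0 ± 10.4% against 25.5 ± 16.9% (SD, n = 18). Its difference within mice, -3.53 ± 17.9 percentage points (SD), did not pass (paired permutation p = 0.424, adjusted p = 0.424). The share of the leading feature within each set was 29.8 ± 13.7% against 32.7 ± 8.94% (SD, n = 18). Its difference within mice, -2.93 ± 11.9 percentage points (SD), did not pass either (paired permutation p = 0.317, adjusted p = 0.424). Without the 2 libraries under 1500 counts the leading shares were 26.0 ± 6.47% and 30.9 ± 7.67% (SD, n = 16). The members were then higher in 4 of 16 mice, and the adjusted p still missed the threshold (permutation p = 0.0418, adjusted p = 0.0628).

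**Figure D5:**
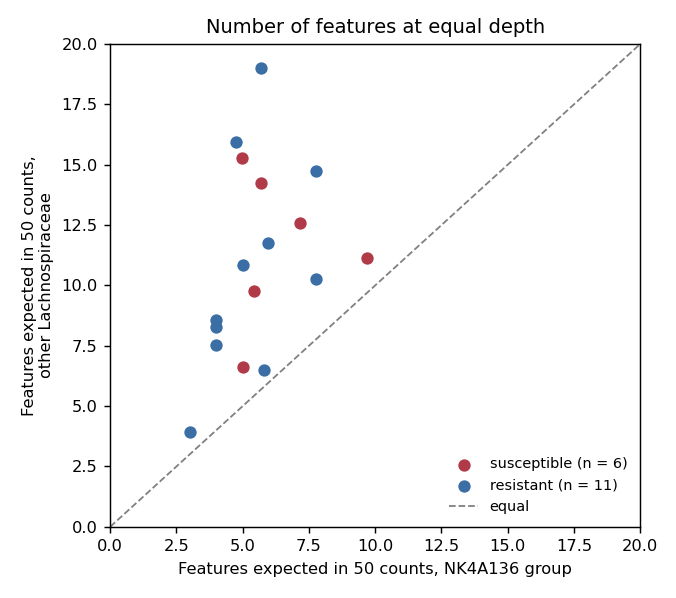
Features expected in 50 counts of Lachnospiraceae outside the NK4A136 group (vertical axis) against features expected in 50 counts of the NK4A136 group (horizontal axis), 1 point per mouse (6 susceptible, 11 resistant); the dashed line marks equal numbers. All 17 points lie above the line.

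None of 4 relations examined across mice passed a permutation test. Between the members' percent and the NK4A136 percent, Pearson's r was 0.208 and Spearman's rho 0.294 (permutation p = 0.406 and 0.235, adjusted p = 0.545 and 0.471). Without the 2 mice highest in NK4A136 the r was 0.462 (permutation p = 0.0728). Within susceptible mice this r was -0.0829 (exact permutation p = 0.912), and within resistant mice 0.453 (permutation p = 0.138). Against the number in the sample title, r was 0.308 for the members' percent (rho 0.315, permutation p = 0.211 and 0.202, adjusted p = 0.545 and 0.471), and 0.222 with the first and last numbered mice left out. For Lachnospiraceae_UCG-001 it was 0.152 (rho 0.181, permutation p = 0.545 and 0.471, adjusted p = 0.545 and 0.628) and -0.0721 with the same 2 left out. For member features expected in 50 member counts it was 0.173 over 17 mice (rho 0.123, permutation p = 0.505 and 0.638, adjusted p = 0.545 and 0.638), and 0.352 without susceptible mouse 1 and resistant mouse 1, the 2 farthest here. Within susceptible mice the 3 values of r against the number were 0.557, 0.520 and 0.321, and within resistant mice 0.210, 0.0563 and 0.128, with the lowest of these 6 permutation p at 0.237.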

How the data were processed

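The labels' protocols describe stool DNA, amplicons of the V1-V3 part of the 16S rRNA gene and MiSeq sequencing. The authors deposited counts (whole numbers, not scaled) for each feature and mouse, and a table of taxonomic names. Denoising, classifier and filters are not given in the sources used here. They set which features and names exist. Shares of counts are not shares of cells, and 1 share falls when another rises.

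Unnamed features were summed under their lowest named rank. Genera and features with at least 10 counts that were found in 4 or more mice entered edgeR's quasi-likelihood test over the whole table, with TMM scaling and Benjamini-Hochberg adjustment at 0.05 (edgeR 4.0.16, R 4.3.3). Log2 fold changes are susceptible over resistant; each SE was derived from the F statistic. Alternatives were other scalings, DESeq2 1.42.0, limma 3.58.1 on log-ratios of counts plus 0.5, exact permutation, other filters, omission of the 2 small libraries and omission of each mouse in turn. The exact permutation test of genera used all 18564 splits of the mice into groups of these sizes. The other permutation tests used 100000 draws, or every arrangement within the susceptible mice (Python 3.11.15, scipy 1.17.1). No pair of libraries within a group agreed within counting noise (81 pairs, lowest chi-square per degree of freedom 10.96). Named are all member genera, the 2 features highest on average in each of 4 genera, those found in 9 or more mice and the 5 with the smallest p. Other features were chosen after their values were seen. The members, lists and tests were chosen with earlier results of these data known.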

Additional observations from a re-analysis of the deposited data

Results flagged for a closer look

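Among the 6 susceptible mice, 1 mouse stood apart from the other 5 in 7 of the 24 member genera and features examined, by the gap to its nearest neighbour relative to the range. The cut-off marks about 1 in 20 such groups by chance for normally distributed values, which these shares with many 0 counts are not. The 7 can therefore not be set against that rate. A taxon found in a single susceptible mouse is always marked, as 5 of the 7 were. Susceptible mouse 1 stood apart for Blautia (0.455%), Tuzzerella (0.207%), [Eubacterium]_ventriosum_group (2.15%) and F-59acc1 of an unnamed genus (0.787%), each at 0 counts in the other 5. Susceptible mouse 5 stood apart for the Lachnoclostridium feature F-1e0ab6 (0.826%, 0 counts in the others). Susceptible mouse 3 held 5.25% of F-15784c against at most 1.37% in the others, and susceptible mouse 2 held 1.93% of F-a97557 against at most 0.621%.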

How the results depend on the processing

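The count of 0 member genera called by edgeR became 1 with limma on centred log-ratios, 1 with the exact permutation test (both [Eubacterium]_xylanophilum_group) and 3 with no filter (Blautia, Roseburia and Tuzzerella, each found in 1 mouse). It stayed at 0 with the other alternatives and with each mouse left out. Without a filter 22 member features were called, and 0 under every other alternative. The 1 genus called by presence became 0 without the libraries under 1500 counts, and 0 to 1 with single mice left out. Directions turned for genera far from the threshold. With DESeq2 size factors, library totals, the DESeq2 Wald test and limma on centred log-ratios, the log2 fold change was -0.32, -0.31, -0.32 and -0.25 for ASF356, -0.29, -0.16, -0.30 and -2.01 for Lachnoclostridium and -1.03, -0.33, -1.04 and -0.68 for Marvinbryantia. It was -1.81 for Lachnoclostridium in the exact permutation test and -0.11 for Marvinbryantia with no filter. Without the libraries under 1500 counts it was -1.05 for ASF356, -0.10 for Acetatifactor and -1.44 for Marvinbryantia. F-029e14, at -0.33 in edgeR with TMM, took 0.16 with library totals, 0.98 with limma, 0.17 with no filter and 0.92 when 9 mice were required. With single mice left out the range was -1.01 to 0.58 for ASF356, -0.015 to 1.68 for Acetatifactor, -0.42 to 0.75 for Lachnoclostridium, -1.27 to 0.075 for Lachnospiraceae_UCG-001, -1.31 to 0.55 for Marvinbryantia and -1.16 to 0.47 for F-029e14. The cause of these turns was not tested. The difference in the members' summed percent ran from -2.07 to 2.64 with single mice left out, within the spread between mice. No paired comparison of the groups was possible, because each mouse belongs to 1 group only and the labels give no litter or cage to match on. The labels give no replicate numbers either, and mice are numbered here within each group in order of the number in the sample title. Depth limits presence: 1 count is 0.0256% to 0.149% of a library.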
